A study of Mus musculus with 12 samples.

Results

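Bone marrow derived macrophages (BMDMs) given tumor-conditioned medium (TCM) from NB9464 cells were compared with BMDMs given TCM from NBT3L cells, in both cases without the drug R788. The comparison used 4 of the 12 libraries of the series, SJ3 and SJ4 (NB9464 TCM) and SJ5 and SJ6 (NBT3L TCM), and the 16281 of 54232 listed genes that had at least 10 counts in at least 2 of the 12 libraries. The macrophages came from wild-type C57BL/6 mice aged 6 to 8 weeks, were cultured for 5 days and were then kept in TCM for 24 h. NB9464 is a mouse neuroblastoma line with amplified MYCN, and the labels describe NBT3L as a line without the amplification. Each kind of medium thus came from a single line, so that MYCN status and every other difference between the lines cannot be told apart. The methods describe NB9464 TCM as DMEM without serum taken off washed, nearly confluent cells, and give no account of NBT3L TCM. BMDMs with neither TCM nor R788 (NS, libraries SJ1 and SJ2, with a medium that was not stated) are given beside the results as a level. Another 4 libraries had the same media plus 500 nM R788 (fostamatinib, an inhibitor of the tyrosine kinase Syk, vehicle not stated), namely SJ9 and SJ10 with NB9464 TCM + R788 and SJ11 and SJ12 with NBT3L TCM + R788.

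Macrophages take up amino acids, lipids, hormones, cytokines and cell debris from the fluid around them, and each sets off a known transcriptional program. Shortage of amino acids activates the kinase GCN2, which favors translation of the transcription factor ATF4 and with it the genes for making, importing and charging amino acids. Microbial products and interleukin 1 act through NF-kB on cytokine and chemokine genes, type I interferon acts through its receptor on antiviral genes, and glucocorticoids act through the nuclear receptor encoded by Nr3c1.

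The 4 libraries held between 44977847 and 56364160 counts and had between 18077 and 18305 genes with at least 1 count. Replicates differed on the log2 scale with an SD over 10641 genes of 0.240 in the NB9464 TCM pair and 0.222 in the NBT3L TCM pair. Summed TPM (counts per base of gene length, scaled to a fixed total) of 10 macrophage markers (Adgre1, Cd68, Csf1r and others) lay between 73342 and 78712 in the 4 libraries, most of it from Lyz2 (63439 to 68917), which was not called. Of these 10 markers Itgam and Mertk were called higher (log2 fold changes 0.25 and 1.197) and Adgre1, Cd68, Csf1r and Aif1 lower (log2 fold changes -0.39, -0.27, -0.17 and -0.45). The 15 neuroblastoma and neuronal markers summed to between 3.35 and 5.76 TPM with 5 of them at 3 counts or fewer in each library, and 8 neutrophil markers to between 694 and 787 TPM. The last sums were lower in the NB9464 TCM libraries (3.35 and 3.71 neuronal, 743 and 694 neutrophil) than in the NBT3L TCM libraries (5.76 and 4.98, 787 and 771), with 1 of 7 tested neuronal markers called lower and 1 of 7 tested neutrophil markers called in each direction, and their part in the results was not tested. Most of the neutrophil sum came from S100a8 (451 to 563 TPM) and S100a9 (179 to 220 TPM), neither of them called. S100a9 was at 220 and 200 TPM with NB9464 TCM against 179 and 180 with NBT3L TCM. Ly6g, Elane, Mpo and Retnlg each stood between 0 and 0.354 TPM in the 4 libraries. Camp, called lower, was at 13.55 and 12.18 TPM with NB9464 TCM against 23.07 and 18.48 with NBT3L TCM. Ngp, called higher, was at 29.6 and 30.87 TPM with NB9464 TCM against 22.08 and 20.01 with NBT3L TCM. These are bulk samples, in which fewer cells of a type and less RNA per cell cannot be told apart. Nothing states that the 2 libraries of a group came from separate mice or cultures, so the spread between replicates may be technical. The p-values rest on a spread estimated for each gene within the groups of all 12 libraries, and not only of the 4 compared.

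Of the 16281 genes, 9.4% were called by DESeq2 at an adjusted p under 0.05, 3.69% as higher and 5.72% as lower in NB9464 TCM. These were 600 higher genes, with a median log2 fold change of 0.47, and 931 lower genes, with a median of -0.35, beside a median of -0.0014 over all tested genes. At least 2-fold differences made up 104 of the higher and 77 of the lower genes, so most called differences were small. In every called gene both libraries of one group lay above both of the other, which held for 23.4% (NB9464 TCM above) and 25.9% (below) of all tested genes. The quasi-likelihood test of edgeR called 1033 genes (6.34%), 435 higher (2.67%) and 598 lower (3.67%). Exons of 33 of the 147 genes named here overlap another annotated gene, and because the use of strand was not stated their counts are uncertain. Among the neighbors are Exosc6 for Aars, Prdx2 for Junb, Psmb9 for Tap1, Pitrm1 for Pfkp, Gse1 for Gins2, Rai1 for Srebf1 and Tmem198b for Mmp19. Without SJ3, SJ5 or SJ6, DESeq2 called 944, 875 and 795 genes. Log2 fold changes below are of NB9464 TCM over NBT3L TCM with their standard errors, normalized counts are counts divided by the size factor of the library, and adjusted p are from DESeq2. Counts of list members below stand beside the 3.69% higher and 5.72% lower of all tested genes. Both shares divide by all 16281 genes, including 4419 without an adjusted p that could not be called. Shares among genes with an adjusted p would be larger.

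**Figure D1:**
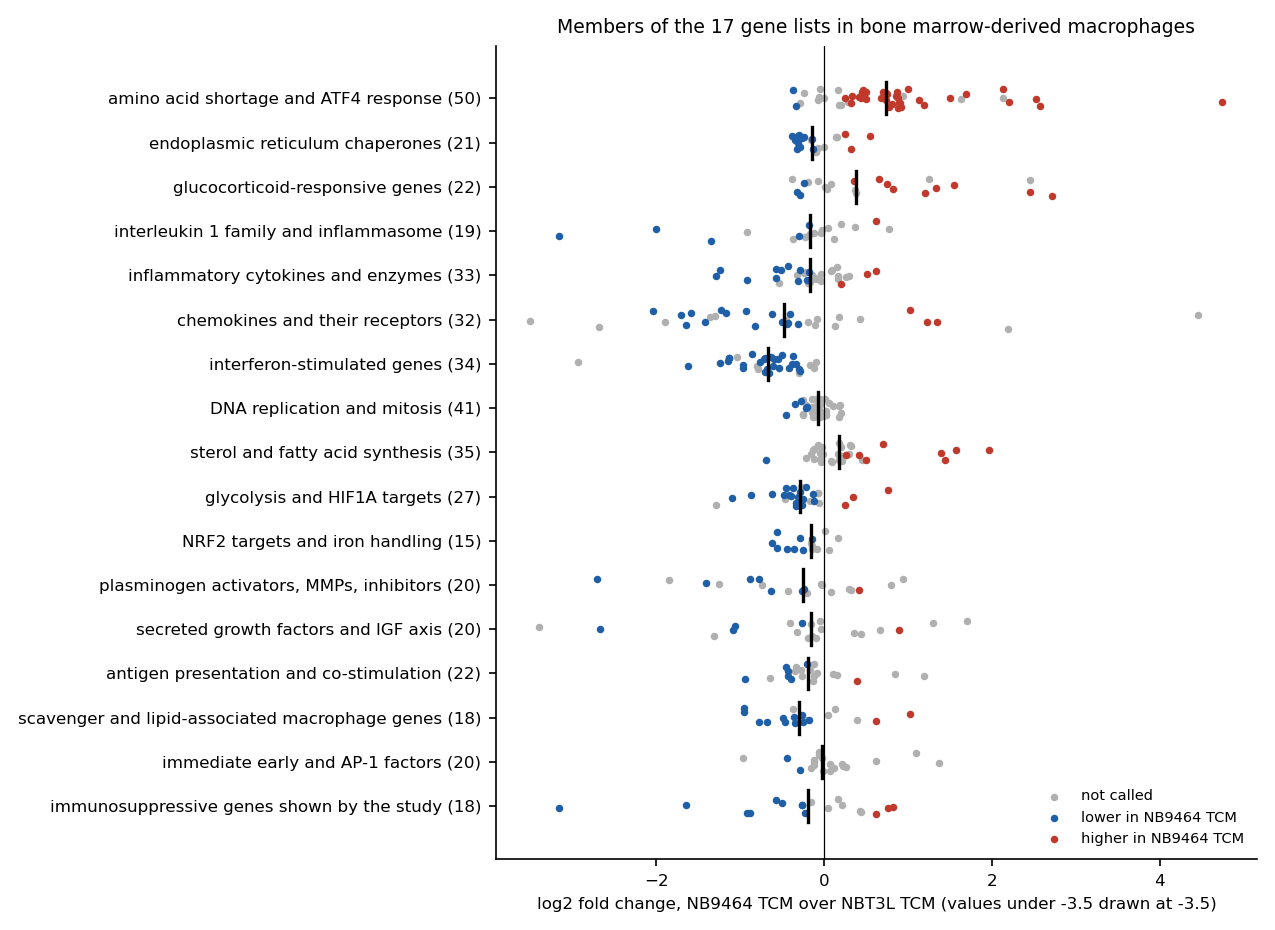
Log2 fold change (NB9464 TCM over NBT3L TCM, 2 libraries each) of each tested member of the 17 gene lists, with the number of tested members in brackets. Each point is a gene, red where called higher, blue where called lower and grey where not called, and the black bar is the median of the list, highest at 0.74 for the amino acid list and lowest at -0.67 for the interferon list.

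Genes of the list for the amino acid shortage and ATF4 response were mostly higher with NB9464 TCM. Whether the media differed in amino acids was not tested. Of 50 tested members of this list, 34 were higher, 2 were lower and 14 were not called, and the median log2 fold change was 0.74. Chac1, whose product breaks down glutathione, had 329 and 411 normalized counts in the NB9464 TCM libraries against 9.90 and 17.3 in the NBT3L TCM libraries (log2 fold change 4.75 ± 0.39, adjusted p = 5.68e-31). Trib3 (ENSMUSG00000032715, chromosome 2, 152337422 to 152344032), a pseudokinase that feeds back on ATF4, had 1120.1 and 1125 normalized counts in the NB9464 TCM libraries against 252 and 235 in the NBT3L TCM libraries (log2 fold change 2.21 ± 0.16, adjusted p = 5.49e-40). Atf4 itself was at 15982 and 16621 against 9959.5 and 10494 (log2 fold change 0.67 ± 0.061, adjusted p = 1.37e-25). In each of these genes both NB9464 TCM libraries lay above both NBT3L TCM libraries, and the NS libraries lay in between, at 299.6 and 265 for Chac1, 789.9 and 750.0 for Trib3 and 13269 and 14447 for Atf4. The 2 members called lower were Atf3, a stress-induced factor of the same family (10102 and 10470.2 against 13695 and 12994, log2 fold change -0.38 ± 0.064, adjusted p = 2.14e-07), and Slc3a2, the heavy chain shared by several amino acid transporters (29439 and 31369.7 against 38149.9 and 38816, log2 fold change -0.34 ± 0.053, adjusted p = 8.34e-09).

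Among the enzymes, 6 of 7 genes of serine, glycine and one-carbon metabolism were higher (median 0.90), as were 4 of 6 genes for asparagine, proline, cysteine and alanine (median 1.34), with none lower in either group. Phgdh, the first enzyme of serine synthesis, had 1779 and 1837 normalized counts in the NB9464 TCM libraries against 248 and 360.3 in the NBT3L TCM libraries (log2 fold change 2.57 ± 0.17, adjusted p = 1.62e-50). Asns (ENSMUSG00000029752, chromosome 6, 7675169 to 7693254), asparagine synthetase, had 4398 and 4256 normalized counts in the NB9464 TCM libraries against 1025 and 954 in the NBT3L TCM libraries (log2 fold change 2.13 ± 0.090, adjusted p = 2.10e-120). Aldh1l2, a mitochondrial folate enzyme, was far less abundant, at 58.3 and 109.6 against 4.95 and 23.8 (log2 fold change 2.53 ± 0.71, adjusted p = 0.00519). The groups of libraries did not overlap in any of the 3, and the NS libraries were at 648 and 713 for Phgdh and 3041 and 2885 for Asns, between the media. Of the 9 amino acid transporters 5 were higher and 1 (Slc3a2) was lower. Slc7a11, the cystine importer, was not called at 33048 and 28305 against 32083 and 31255 (log2 fold change -0.046 ± 0.081, adjusted p = 0.814) and stood far above NS (1336 and 1422) in both media. Of the 12 tRNA synthetases 11 were higher and 0 lower, with a median of 0.44, among them Aars for alanine (13499 and 14562 against 9988 and 9916, log2 fold change 0.50 ± 0.057, adjusted p = 2.44e-16). Aldh1l2 was not called without SJ4 or SJ5 (adjusted p between 0.188 and 0.192).

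Promoters from RefSeq on GRCm38.p6 (250 bases before to 50 bases after a start site) were searched on both strands for the letters TGATGNAAT of the C/EBP-ATF response element, which ATF4 is known to bind. Of 40 list members with a promoter in the RefSeq table, 5 held the letters, and each of these, Nupr1, Pycr1, Aars, Gars and Iars, was called higher. Over all tested genes with a promoter 72 of 11415 did (0.631%), and 293 of all 27025 genes with a promoter (1.08%). Among called genes with a promoter, 5 of 482 higher ones (1.04%), which are these same list members, and 3 of 759 lower ones (0.395%) did. The list was made of known members of this response, so its share of matches does not depend on the media. A match is a stretch of letters and not a shown binding site, and the search says nothing of elements elsewhere. Some of these promoters are shown 5′ to 3′ along the gene, with the match in capitals, for the stress regulator Nupr1 (chr7:126625421-126625720, minus strand), the proline synthesis enzyme Pycr1 (chr11:120643699-120643998, minus strand) and the glycyl-tRNA synthetase Gars (chr6:55037751-55038050, plus strand).
Nupr1: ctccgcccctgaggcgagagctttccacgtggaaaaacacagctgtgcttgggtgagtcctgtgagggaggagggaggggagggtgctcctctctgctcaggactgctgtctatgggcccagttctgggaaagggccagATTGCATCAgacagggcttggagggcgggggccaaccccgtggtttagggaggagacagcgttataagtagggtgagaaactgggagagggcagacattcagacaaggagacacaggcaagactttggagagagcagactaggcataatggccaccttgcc
Pycr1: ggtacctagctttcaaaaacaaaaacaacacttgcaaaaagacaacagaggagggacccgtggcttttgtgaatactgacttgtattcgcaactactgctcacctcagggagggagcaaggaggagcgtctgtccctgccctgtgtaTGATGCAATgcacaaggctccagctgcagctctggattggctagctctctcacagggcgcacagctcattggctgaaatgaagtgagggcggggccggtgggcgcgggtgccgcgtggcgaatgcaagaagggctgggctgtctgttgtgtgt
Gars: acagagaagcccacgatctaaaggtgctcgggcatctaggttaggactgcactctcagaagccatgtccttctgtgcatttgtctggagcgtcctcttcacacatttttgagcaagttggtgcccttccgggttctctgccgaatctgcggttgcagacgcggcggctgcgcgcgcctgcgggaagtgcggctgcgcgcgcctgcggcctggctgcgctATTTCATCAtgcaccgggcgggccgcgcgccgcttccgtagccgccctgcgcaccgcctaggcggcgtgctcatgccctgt
Normalized counts of Nupr1 were 1254 and 1511 against 799.5 and 857 (log2 fold change 0.74 ± 0.13, adjusted p = 1.64e-07), those of Pycr1 130.1 and 100.3 against 24.8 and 46.5 (log2 fold change 1.69 ± 0.51, adjusted p = 0.0114) and those of Gars 7991 and 7924 against 5905 and 5751 (log2 fold change 0.45 ± 0.071, adjusted p = 1.03e-08). Pycr1 was not called without SJ3, SJ4 or SJ5 (adjusted p between 0.0505 and 0.255).

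Chaperones of the endoplasmic reticulum, which fold secreted and membrane proteins and are induced mainly through ATF6 and XBP1, differed in the other direction. Of 14 chaperones and folding enzymes 11 were lower and 0 higher, by small amounts (median -0.28). Calr, the lectin chaperone calreticulin, was at 104419 and 110491 against 139584 and 140210.0 (log2 fold change -0.38 ± 0.044, adjusted p = 1.36e-15), Creld2 at 5810.1 and 6436 against 7822 and 7778 (log2 fold change -0.35 ± 0.073, adjusted p = 4.33e-05) and Hspa5, the master chaperone BiP, at 88347 and 88058 against 99205 and 96662 (log2 fold change -0.15 ± 0.052, adjusted p = 0.0321). Of 7 genes of degradation and control 3 were higher. These were Herpud1, of the degradation complex (7516 and 7821 against 5282 and 5228, log2 fold change 0.55 ± 0.095, adjusted p = 4.46e-07), and the stress sensors Ern1 (2808 and 2918 against 2167 and 2414, log2 fold change 0.32 ± 0.10, adjusted p = 0.0166) and Atf6 (6947 and 6119 against 5615 and 5421, log2 fold change 0.24 ± 0.089, adjusted p = 0.0494). The NB9464 TCM and NBT3L TCM libraries did not overlap in any of the 6 genes. Hspa5 was not called without SJ3, SJ4, SJ5 or SJ6 (adjusted p between 0.138 and 0.306) or with edgeR (adjusted p = 0.0766), Ern1 was not called without SJ3, SJ4 or SJ5 (adjusted p between 0.0839 and 0.325) and Atf6 was not called without SJ3, SJ5 or SJ6 (adjusted p between 0.174 and 0.541), with edgeR (adjusted p = 0.0895), with no filter on low counts (adjusted p = 0.05001) or with halved counts (adjusted p = 0.0552). For the whole list, leaving out SJ3, SJ4, SJ5 or SJ6 gave 1, 2, 1 and 2 members higher and 6, 9, 7 and 7 members lower.

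**Figure D2:**
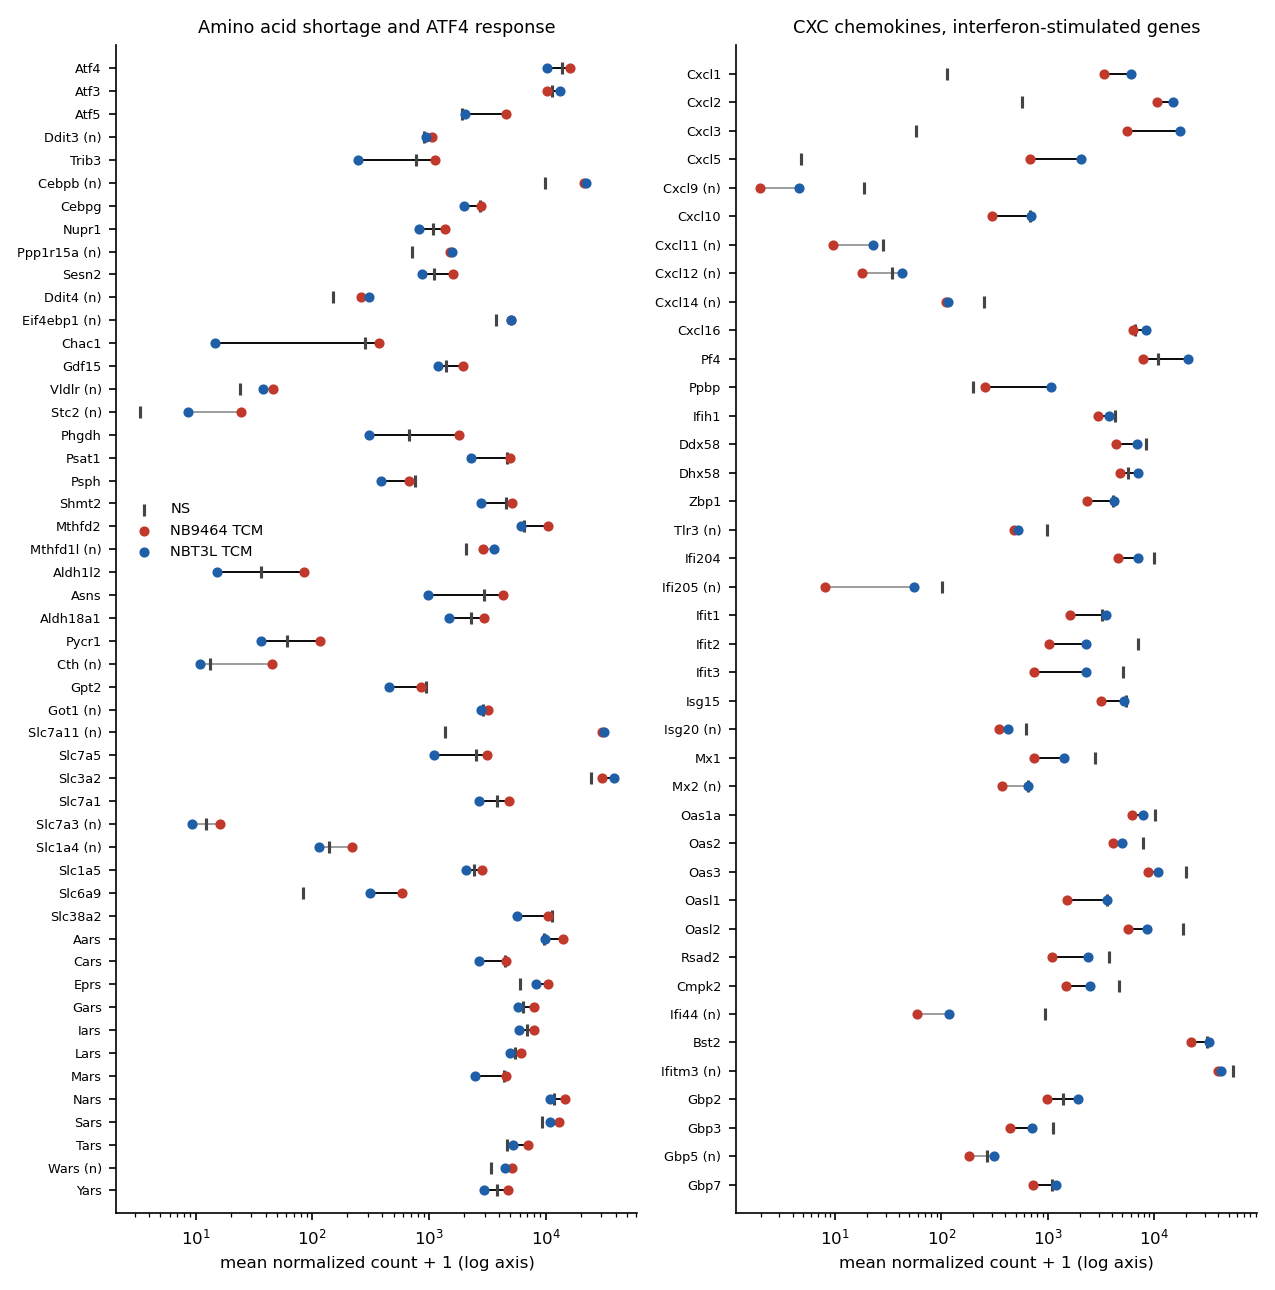
Mean normalized count plus 1 (log axis, means of 2 libraries) of every tested member of the amino acid list (left) and of the CXC chemokines and the interferon-stimulated sensors, effectors and guanylate binding proteins (right). Red points are NB9464 TCM, blue points NBT3L TCM and vertical ticks NS, and (n) after a symbol marks a gene that was not called. On the left most red points lie to the right of the blue, and on the right all of the red points of called genes lie to the left.

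Among glucocorticoid-responsive genes more were higher than lower with NB9464 TCM. Of 22 members 9 were higher, 3 were lower and 10 were not called (median 0.37). Fkbp5, a chaperone that limits the glucocorticoid receptor, had 3295 and 3554 normalized counts in the NB9464 TCM libraries against 1356 and 1357 in the NBT3L TCM libraries (log2 fold change 1.34 ± 0.095, adjusted p = 1.67e-42). Tsc22d3 (ENSMUSG00000031431, chromosome X, 140539528 to 140600659), which encodes the anti-inflammatory protein GILZ, had 2900.2 and 2759.9 normalized counts in the NB9464 TCM libraries against 929 and 1007 in the NBT3L TCM libraries (log2 fold change 1.55 ± 0.090, adjusted p = 3.74e-63). Klf9, a zinc finger repressor, was at 555 and 416 against 101 and 47.6 (log2 fold change 2.71 ± 0.35, adjusted p = 1.53e-12), and Hif3a, a hypoxia-inducible factor subunit, at 181 and 118 against 39.6 and 15.1 (log2 fold change 2.46 ± 0.56, adjusted p = 2.67e-04) with 0 and 0 in NS. Both NB9464 TCM libraries were the high ones in all 4 genes. The receptor gene Nr3c1 was not called, at 3742 and 3299 against 3436 and 3542 (log2 fold change 0.013 ± 0.096, adjusted p = 0.965). Cd163, the hemoglobin scavenger receptor that glucocorticoids induce in macrophages, was at 945 and 843 against 539.6 and 472 (log2 fold change 0.82 ± 0.16, adjusted p = 4.01e-06). The 3 members called lower were Sesn1 (1633 and 1660.0 against 1921 and 2185, log2 fold change -0.32 ± 0.098, adjusted p = 0.0129), Glul (6459.6 and 6345 against 7797 and 7879.8, log2 fold change -0.29 ± 0.058, adjusted p = 1.17e-05) and Anxa1 (19080.2 and 19799 against 23037 and 23084, log2 fold change -0.25 ± 0.051, adjusted p = 3.76e-05), which encode a stress sensor of the sestrin family, glutamine synthetase and annexin A1. The letters ACANNNTGT of the glucocorticoid response element were in the promoters of 3 of 19 matched members (Sgk1, Glul and Mt1, named for this match) and of 5.37% of tested genes. Sgk1 was called higher, Glul lower and Mt1 was not called. Among called genes with a promoter, 38 of 482 higher ones (7.88%) and 36 of 759 lower ones (4.74%) held them. Hif3a was not called without SJ3 or SJ6 (adjusted p between 0.0520 and 0.0583) and Sesn1 was not called without SJ3, SJ4 or SJ6 (adjusted p between 0.0746 and 0.364), with edgeR (adjusted p = 0.0585) or with the 4 libraries fitted alone (adjusted p = 0.0671).

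In lipid metabolism, calls were found among the genes of fatty acid synthesis. Of 9 fatty acid genes 6 were higher and 0 lower (median 0.50), while of 16 sterol pathway genes none was called (median -0.024, and 0.015, 0.0012 and 0.082 without SJ3, SJ4 and SJ5). Dhcr7 and Lss, enzymes of the sterol pathway named here after their values were seen, had log2 fold changes of 0.45 ± 0.18 (adjusted p = 0.0723) and 0.31 ± 0.14 (adjusted p = 0.132). Both were called higher with the 4 libraries fitted alone (adjusted p = 0.00328 and 0.0321), with the 8 TCM libraries fitted alone (adjusted p = 8.42e-04 and 0.0132) and without the R788 library SJ8 (adjusted p = 3.02e-04 and 0.0161), and Dhcr7 also with a mean of at least 50 counts (adjusted p = 0.04999). The difference between these groups of genes was not tested. Scd2 (ENSMUSG00000025203, chromosome 19, 44293674 to 44306864), a stearoyl-CoA desaturase, had 21755 and 21105 normalized counts in the NB9464 TCM libraries against 7879 and 7887 in the NBT3L TCM libraries (log2 fold change 1.44 ± 0.068, adjusted p = 2.24e-97). Its paralog Scd1 was at 761 and 597 against 214 and 134 (log2 fold change 1.97 ± 0.33, adjusted p = 1.11e-07) and Fads2, another desaturase, at 884 and 938 against 343 and 354 (log2 fold change 1.39 ± 0.18, adjusted p = 2.77e-13). Srebf1, the factor that drives these genes, was at 6530.3 and 7819.9 against 5596 and 5199 (log2 fold change 0.41 ± 0.090, adjusted p = 1.07e-04), and Hmgcs1, at the start of the sterol pathway, at 2557 and 2609 against 2762 and 3002 (log2 fold change -0.16 ± 0.086, adjusted p = 0.255). Abcg1, a cholesterol exporter and target of the liver X receptors (LXR), was at 2082 and 2098 against 731 and 679.5 (log2 fold change 1.57 ± 0.12, adjusted p = 3.01e-37), while the receptor gene Nr1h3 was lower at 1106 and 1025 against 1735 and 1708 (log2 fold change -0.69 ± 0.13, adjusted p = 1.24e-06). Each called gene of the group had libraries that did not overlap. Levels in NS were 9276 and 8616 for Scd2, nearer to NBT3L TCM, and 2251 and 2381 for Abcg1, nearer to NB9464 TCM. Srebf1 was not called without SJ4 (adjusted p = 0.0516). For the list of 35 tested genes, leaving out SJ3, SJ4, SJ5 or SJ6 gave 6, 5, 7 and 6 members higher and 2, 1, 1 and 1 members lower.

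The interleukin 1 genes Il1a, Il1b and Il1rn were lower with NB9464 TCM, the cytokines being main drivers of inflammation. Of 19 members of the family and the inflammasome list, 1 was higher, 5 were lower and 13 were not called (median -0.17). Il1b was at 965 and 1123 normalized counts in the NB9464 TCM libraries against 9275 and 9335 in the NBT3L TCM libraries (log2 fold change -3.16 ± 0.10, adjusted p = 8.26e-216), Il1a at 1816 and 1629 against 4446 and 4322 (log2 fold change -1.35 ± 0.12, adjusted p = 1.24e-26), and Il1rn (ENSMUSG00000026981, chromosome 2, 24336853 to 24351494), which encodes the antagonist of the same receptor, at 3968 and 4264 against 16222 and 16839 (log2 fold change -2.01 ± 0.11, adjusted p = 2.76e-69). In all 3 genes the NBT3L TCM libraries were the high ones, and NS lay below both media, at 52.6 and 55.0, 1.88 and 11.4 and 1975 and 2114. Exons of Il1b overlap an antisense gene, Il1bos, and the use of strand in counting was not stated. Of the inflammasome genes, the adaptor Pycard was higher (3098 and 2983 against 1988 and 1990.0, log2 fold change 0.61 ± 0.094, adjusted p = 3.93e-09), and the sensor Nlrp3 (10699 and 10104 against 11863 and 11694, log2 fold change -0.18 ± 0.060, adjusted p = 0.0255) and the protease Casp1 (4384 and 4635 against 5619 and 5507, log2 fold change -0.30 ± 0.074, adjusted p = 6.93e-04) were lower by small amounts. Nlrp3 was not called without SJ4, SJ5 or SJ6 (adjusted p between 0.181 and 0.293) or with edgeR (adjusted p = 0.125) and Casp1 was not called without SJ3 (adjusted p = 0.0633). The median of the interleukin 1 list was -0.038 without SJ4. For the interleukin 1 list, leaving out SJ3, SJ4, SJ5 or SJ6 gave 1, 2, 1 and 1 members higher.

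Chemokines, which draw leukocytes to a tissue, were lower or not called with NB9464 TCM in the DESeq2 fit of all 12 libraries. Of 12 CXC chemokines 8 were lower and 0 higher, with a median of -1.33, and of 11 CC chemokines 6 were lower and 0 higher (median -0.45). With edgeR, with halved counts, with the 4 libraries fitted alone and with the 8 TCM libraries fitted alone 1 CC chemokine was called higher. Cxcl3 (ENSMUSG00000029379, chromosome 5, 90786103 to 90789600), a ligand of CXCR2, had 5435 and 5588 normalized counts in the NB9464 TCM libraries against 17024 and 17601 in the NBT3L TCM libraries (log2 fold change -1.65 ± 0.38, adjusted p = 2.89e-04). Cxcl5, a ligand of the same receptor, was at 631 and 742 against 1978 and 2159 (log2 fold change -1.59 ± 0.19, adjusted p = 1.79e-15) and Cxcl1 at 3202 and 3559 against 5900.0 and 6104 (log2 fold change -0.83 ± 0.087, adjusted p = 3.32e-19). Ppbp, the precursor of the platelet chemokine CXCL7, was at 257 and 259 against 1110.2 and 1014 (log2 fold change -2.04 ± 0.24, adjusted p = 1.40e-15), and Ccl2, which attracts monocytes, at 57537 and 58327 against 89837 and 88609.8 (log2 fold change -0.62 ± 0.086, adjusted p = 3.59e-11). The NBT3L TCM libraries were high throughout, and NS libraries were at 56.4 and 56.9 for Cxcl3, 1.88 and 5.69 for Cxcl5 and 242 and 151 for Ppbp. Of 9 chemokine receptors 3 were higher, with levels far below NS in both media. Ccr2, the receptor of Ccl2, was at 641 and 627 against 299.5 and 326 (log2 fold change 1.02 ± 0.12, adjusted p = 7.27e-15, NS 6189 and 5835), Cx3cr1 at 565 and 549.9 against 254 and 224 (log2 fold change 1.23 ± 0.16, adjusted p = 6.54e-13, NS 3349 and 3099) and Cxcr4 at 151 and 124 against 52.0 and 56.3 (log2 fold change 1.34 ± 0.28, adjusted p = 5.31e-05, NS 1099 and 1144). Ccr3 was the 1 receptor called lower (40.2 and 16.7 against 96.5 and 88.7, log2 fold change -1.71 ± 0.48, adjusted p = 0.00565). Ccr3 was not called without SJ4, SJ5 or SJ6 (adjusted p between 0.0645 and 0.186), with the 4 libraries fitted alone (adjusted p = 0.0559) or the 8 TCM libraries fitted alone (adjusted p = 0.0880).

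The letters of an NF-kB site (GGGA, any base, then TTTCC, on either strand) were in the promoters of 4 of 22 matched members of the chemokine list, Cxcl1, Cxcl2, Cxcl3 and Ccr3. They were in those of 63 of 11415 tested genes (0.552%, and 0.466% of all 27025 genes with a promoter). Among called genes with a promoter, 12 of 759 lower ones (1.58%) and 4 of 482 higher ones (0.83%) held them. The promoters of the neighboring paralogs Cxcl1 (chr5:90890995-90891294, plus strand), Cxcl2 (chr5:90903649-90903948, plus strand) and Cxcl3 (chr5:90785851-90786150, plus strand) are shown to let the shared site be seen, with the match in capitals, starting at -71, -97 and -73 from the first transcribed base.
Cxcl1: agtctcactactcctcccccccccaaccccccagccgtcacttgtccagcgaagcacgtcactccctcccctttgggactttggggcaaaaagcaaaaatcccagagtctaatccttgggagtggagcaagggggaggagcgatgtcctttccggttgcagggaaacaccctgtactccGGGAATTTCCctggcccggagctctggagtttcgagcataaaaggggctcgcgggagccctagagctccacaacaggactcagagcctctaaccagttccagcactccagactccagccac
Cxcl2: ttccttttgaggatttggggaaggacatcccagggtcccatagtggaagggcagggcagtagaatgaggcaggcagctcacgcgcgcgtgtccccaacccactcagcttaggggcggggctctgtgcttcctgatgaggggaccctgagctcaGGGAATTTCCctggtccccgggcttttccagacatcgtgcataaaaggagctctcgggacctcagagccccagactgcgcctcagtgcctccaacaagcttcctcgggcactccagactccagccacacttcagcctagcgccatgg
Cxcl3: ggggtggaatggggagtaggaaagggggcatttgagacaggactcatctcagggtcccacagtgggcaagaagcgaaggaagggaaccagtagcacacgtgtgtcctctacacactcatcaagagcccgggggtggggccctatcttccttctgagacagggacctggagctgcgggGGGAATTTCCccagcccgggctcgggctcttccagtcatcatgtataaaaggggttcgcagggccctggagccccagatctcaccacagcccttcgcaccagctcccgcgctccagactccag
Cxcl2, named after its value was seen, was at 10292 and 10969 against 15020.3 and 15203 (log2 fold change -0.51 ± 0.068, adjusted p = 6.03e-12), while Cxcl3 had the larger difference given above. Reads shared among these paralogs could have been split in counting.

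Other inflammatory cytokines and enzymes were mixed. Of 33 members 3 were higher, 11 were lower and 19 were not called (median -0.17). Il6 was at 259 and 327 normalized counts in the NB9464 TCM libraries against 710.4 and 671 in the NBT3L TCM libraries (log2 fold change -1.24 ± 0.25, adjusted p = 2.54e-05), Ptgs2, the inducible cyclooxygenase COX-2, at 969 and 755 against 2262 and 1967 (log2 fold change -1.29 ± 0.19, adjusted p = 1.04e-09), and Arg1, arginase, at 517 and 582 against 996 and 1092 (log2 fold change -0.92 ± 0.21, adjusted p = 2.32e-04). Tnf differed little, at 8835 and 8836 against 10214 and 10141 (log2 fold change -0.20 ± 0.073, adjusted p = 0.0418), as did Nfkb1, an NF-kB subunit (10273 and 10074 against 12619 and 12155, log2 fold change -0.28 ± 0.053, adjusted p = 3.06e-06). The 3 genes called higher were Il10, an anti-inflammatory cytokine (672 and 786 against 509.9 and 441, log2 fold change 0.62 ± 0.18, adjusted p = 0.00753), Csf1, the macrophage growth factor (862 and 795 against 572 and 589.7, log2 fold change 0.51 ± 0.17, adjusted p = 0.0233), and Nfkbiz, an NF-kB cofactor (9813 and 10098 against 8646 and 8636, log2 fold change 0.20 ± 0.062, adjusted p = 0.0116). In no called gene of the group did the NB9464 TCM and NBT3L TCM libraries overlap. Arg1 was not called without SJ6 (adjusted p = 0.0620), Tnf was not called without SJ3, SJ4, SJ5 or SJ6 (adjusted p between 0.184 and 0.263), with edgeR (adjusted p = 0.152) or with TMM scaling (adjusted p = 0.0738) and Il10 was not called without SJ4 or SJ6 (adjusted p between 0.210 and 0.232). Csf1 was not called without SJ3, SJ4, SJ5 or SJ6 (adjusted p between 0.0998 and 0.283) and Nfkbiz was not called without SJ3, SJ4, SJ5 or SJ6 (adjusted p between 0.0732 and 0.175) or with edgeR (adjusted p = 0.0562). For the whole list, leaving out SJ3, SJ4, SJ5 or SJ6 gave 1, 0, 1 and 0 members higher.

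**Figure D3:**
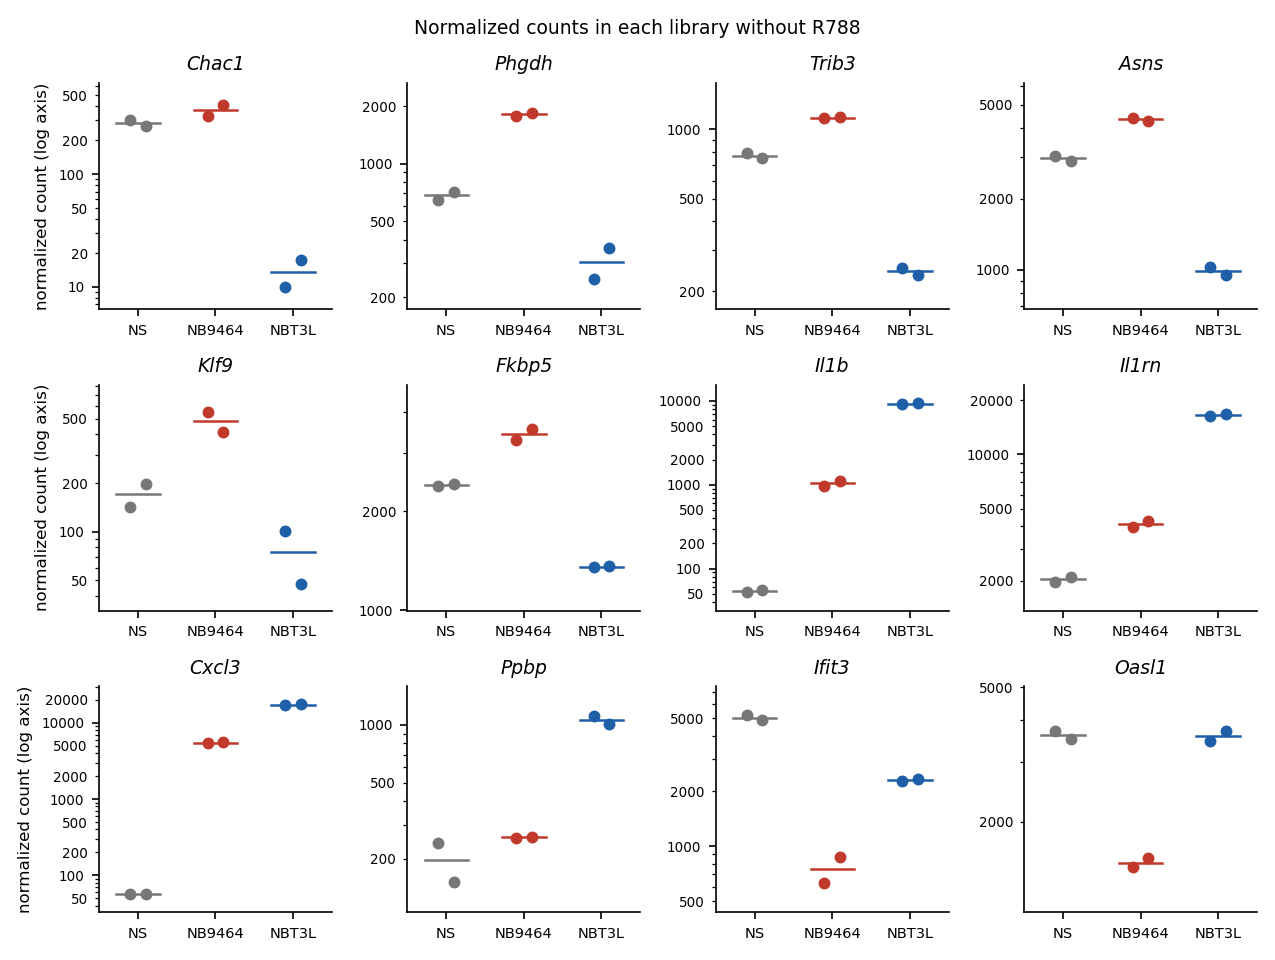
Normalized count (log axis) of 12 genes in each library without R788. Points are the 2 libraries of NS (grey), NB9464 TCM (red) and NBT3L TCM (blue), and lines are their means. Chac1, Phgdh, Trib3, Asns, Klf9 and Fkbp5 are highest in NB9464 TCM, the interleukin 1 and CXC chemokine genes are highest in NBT3L TCM, and Ifit3 and Oasl1 are lowest in NB9464 TCM.

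Interferon-stimulated genes were lower with NB9464 TCM. Of 34 members 0 were higher, 26 were lower and 8 were not called, with a median of -0.67. Ifit3 (ENSMUSG00000074896, chromosome 19, 34583531 to 34588731), an RNA-binding antiviral protein, had 627 and 868 normalized counts in the NB9464 TCM libraries against 2275 and 2329 in the NBT3L TCM libraries (log2 fold change -1.62 ± 0.18, adjusted p = 2.94e-18). Oasl1 (ENSMUSG00000041827, chromosome 5, 114923240 to 114937915), of the oligoadenylate synthetase family, was at 1468 and 1559 against 3458 and 3701 (log2 fold change -1.24 ± 0.11, adjusted p = 1.05e-29), Ifit1 at 1678 and 1549 against 3754 and 3305 (log2 fold change -1.13 ± 0.13, adjusted p = 3.48e-15), Ifit2 at 1177 and 869 against 2282 and 2254 (log2 fold change -1.15 ± 0.14, adjusted p = 1.52e-14) and Rsad2, the antiviral enzyme viperin, at 1073 and 1121 against 2363 and 2451 (log2 fold change -1.13 ± 0.17, adjusted p = 6.22e-10). Both NB9464 TCM libraries were below both NBT3L TCM libraries in each. NS levels were higher than NB9464 TCM in all 5, at 5209.6 and 4887 for Ifit3, 3702 and 3516 for Oasl1, 3274 and 3123 for Ifit1, 7291 and 6753 for Ifit2 and 4010.3 and 3547 for Rsad2. The RNA sensor Ifih1 was at 3004 and 2873 against 3849 and 3729 (log2 fold change -0.37 ± 0.10, adjusted p = 0.00413) and the guanylate binding protein Gbp2 at 949.9 and 1007 against 1797 and 2032 (log2 fold change -0.97 ± 0.19, adjusted p = 1.35e-05). Members of the Ifit, Oas and Gbp families resemble each other, so their counts are uncertain where reads were shared. Ifih1 was not called without SJ4, SJ5 or SJ6 (adjusted p between 0.0540 and 0.110).

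The letters of the interferon-stimulated response element (a pair of GAAA with 2 bases between, on either strand) were in the promoters of 16 of 26 matched list members. They were in those of 451 of 11415 tested genes (3.95%, and 3.99% of all 27025 genes with a promoter), where overlapping matches in 1 promoter count once. The list was made of known interferon-stimulated genes, so its share of matches does not depend on the media. Of the 16, Ifi205, Ifitm3 and Gbp5, named for this match, were not called, and the others were lower. The promoters of Ifit1 (chr19:34640639-34640938, plus strand) and Ifit3 (chr19:34583279-34583578, plus strand) are printed because both hold a pair of matches, in capitals, and both genes were among the lower ones.
Ifit1: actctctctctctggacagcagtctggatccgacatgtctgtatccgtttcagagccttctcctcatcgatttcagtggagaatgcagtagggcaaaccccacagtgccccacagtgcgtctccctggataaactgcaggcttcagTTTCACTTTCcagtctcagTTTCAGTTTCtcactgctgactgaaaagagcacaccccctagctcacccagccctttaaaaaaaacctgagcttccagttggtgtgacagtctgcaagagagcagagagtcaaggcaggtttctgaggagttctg
Ifit3: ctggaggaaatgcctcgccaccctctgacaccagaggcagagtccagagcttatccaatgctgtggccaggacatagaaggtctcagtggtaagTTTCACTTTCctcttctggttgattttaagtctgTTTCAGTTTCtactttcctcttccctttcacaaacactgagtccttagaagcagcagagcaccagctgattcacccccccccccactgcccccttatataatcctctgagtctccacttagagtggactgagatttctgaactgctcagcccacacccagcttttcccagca
Of all 1531 called genes, the promoters of 58 of 759 matched lower genes and 15 of 482 matched higher genes held these letters.

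Most genes of glycolysis and HIF1A targets were lower, by small amounts. Of 27 members 3 were higher, 17 were lower and 7 were not called (median -0.29). Bnip3, a mitophagy receptor, was at 2090.1 and 1918 normalized counts in the NB9464 TCM libraries against 4348 and 4221 in the NBT3L TCM libraries (log2 fold change -1.10 ± 0.10, adjusted p = 1.09e-23), Egln3, an oxygen sensor, at 1138 and 1243 against 2169.6 and 2206 (log2 fold change -0.88 ± 0.12, adjusted p = 1.94e-11), P4ha2, a collagen prolyl hydroxylase, at 2279 and 2215 against 3573 and 3359 (log2 fold change -0.63 ± 0.093, adjusted p = 1.24e-09) and the glucose transporter Slc2a1 at 14101 and 14912 against 18998 and 18491 (log2 fold change -0.37 ± 0.054, adjusted p = 5.31e-10). The 3 higher members were Vegfa, the vascular growth factor (1811 and 1715 against 1067 and 1017, log2 fold change 0.76 ± 0.12, adjusted p = 3.95e-08), Ndrg1 (6276 and 6338 against 4890.0 and 5035, log2 fold change 0.35 ± 0.090, adjusted p = 0.00192) and the phosphofructokinase Pfkp (10329.7 and 10096 against 8740.4 and 8428, log2 fold change 0.25 ± 0.065, adjusted p = 0.00179). Of the 15 NRF2 targets and iron genes 0 were higher, 8 were lower and 7 were not called (median -0.16). Hmox1, heme oxygenase, was at 118457 and 123495 against 183806 and 188472 (log2 fold change -0.62 ± 0.041, adjusted p = 1.21e-48), Nqo1, a quinone reductase, at 2835 and 3306 against 4260.1 and 4838 (log2 fold change -0.57 ± 0.11, adjusted p = 1.38e-05) and Prdx1, a peroxiredoxin, at 279593 and 285217 against 415186 and 420304 (log2 fold change -0.56 ± 0.044, adjusted p = 3.16e-35). NS lay below both media for Hmox1 (37941 and 38388) and for Bnip3 (1425 and 1516). Ndrg1 was not called without SJ5 (adjusted p = 0.0737) and Pfkp was not called without SJ3 or SJ6 (adjusted p between 0.0665 and 0.111). For the NRF2 list, leaving out SJ3, SJ4, SJ5 or SJ6 gave 0, 1, 0 and 0 members higher.

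Secreted proteases and growth factors were lower more often than higher, as were all tested genes (5.72% lower and 3.69% higher). Of 20 genes of the plasminogen system, metalloproteinases and inhibitors 1 was higher, 7 were lower and 12 were not called (median -0.25). Serpinb2, the plasminogen activator inhibitor PAI-2, was at 1505 and 1562 normalized counts in the NB9464 TCM libraries against 9650.1 and 10346 in the NBT3L TCM libraries (log2 fold change -2.70 ± 0.33, adjusted p = 3.70e-14), and its exons overlap Serpinb10 on the same strand. The collagenase gene Mmp13 was at 472 and 549 against 1425 and 1288 (log2 fold change -1.41 ± 0.19, adjusted p = 9.43e-12), the gelatinase genes Mmp9 at 4842 and 4946 against 9253 and 8883 (log2 fold change -0.89 ± 0.074, adjusted p = 9.98e-31) and Mmp2 at 622 and 644 against 1066 and 1100.5 (log2 fold change -0.78 ± 0.13, adjusted p = 3.20e-07), and Mmp19, the 1 higher member, at 1727 and 1761 against 1405 and 1213 (log2 fold change 0.41 ± 0.12, adjusted p = 0.00751). Of 20 growth factors and genes of the insulin-like growth factor axis 1 was higher, 4 were lower and 15 were not called (median -0.15). The lower ones were Igfbp5 (26.8 and 42.7 against 226 and 217, log2 fold change -2.67 ± 0.72, adjusted p = 0.00323), the matrix protein Thbs1 (25967 and 23965 against 52808 and 53175, log2 fold change -1.09 ± 0.057, adjusted p = 9.78e-77), the activin subunit Inhba (207 and 268 against 451 and 542, log2 fold change -1.07 ± 0.29, adjusted p = 0.00408) and Tgfb1 (22919 and 23464 against 28004 and 27864, log2 fold change -0.27 ± 0.049, adjusted p = 1.71e-06). The higher one was Spp1, osteopontin, at 35422 and 35347 against 19339.8 and 18887 (log2 fold change 0.89 ± 0.050, adjusted p = 2.59e-67), with NS at 135345 and 137111. Edn1 was called higher only in alternatives, with the 4 libraries fitted alone (log2 fold change 0.68, adjusted p = 0.0184) and the 8 TCM libraries fitted alone (0.67, adjusted p = 0.0346). Igf1 was called lower without SJ8 (log2 fold change -0.16, adjusted p = 0.0310). Mmp19 was not called without SJ3, SJ4 or SJ6 (adjusted p between 0.0756 and 0.274), Igfbp5 was not called without SJ3, SJ5 or SJ6 (adjusted p between 0.0895 and 0.102) or with edgeR (adjusted p = 0.0571) and Inhba was not called without SJ3 or SJ6 (adjusted p between 0.165 and 0.216). For the protease list, leaving out SJ3, SJ4, SJ5 or SJ6 gave 0, 0, 1 and 0 members higher. The median of the growth factor list was -0.074 without SJ4 and -0.048 without SJ5. For the growth factor list, leaving out SJ3, SJ4, SJ5 or SJ6 gave 3, 4, 3 and 2 members lower.

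Scavenger receptors and antigen presentation genes were lower more often than higher as well. Of 18 scavenger and lipid-associated genes 2 were higher, 11 were lower and 5 were not called (median -0.30). Cd36, a fatty acid and oxidized lipid receptor, was at 23787 and 22704 normalized counts in the NB9464 TCM libraries against 44794 and 45648 in the NBT3L TCM libraries (log2 fold change -0.96 ± 0.048, adjusted p = 2.98e-84), the fungal glucan receptor Clec7a at 451 and 438 against 939 and 780.2 (log2 fold change -0.95 ± 0.19, adjusted p = 2.28e-05) and the mannose receptor Mrc1 at 2812 and 2517 against 4716 and 4424 (log2 fold change -0.78 ± 0.079, adjusted p = 7.18e-21). Those called higher were Fabp4, a fatty acid carrier (1555 and 1197 against 585 and 773, log2 fold change 1.02 ± 0.21, adjusted p = 3.32e-05), and Lpl, lipoprotein lipase (87650.3 and 87999 against 56049 and 58765, log2 fold change 0.61 ± 0.051, adjusted p = 2.35e-30). Of 22 antigen presentation and co-stimulation genes 1 was higher, 6 were lower and 15 were not called (median -0.19). Over all tested genes 3.69% were higher and 5.72% lower. With the 8 TCM libraries fitted alone 10 of the 22 were lower, with 6 of the 8 class I genes lower in place of 2. The class I gene H2-K1 was called lower there (log2 fold change -0.13, adjusted p = 0.0163) and without SJ8 (log2 fold change -0.14, adjusted p = 0.0164). Cd40, a co-stimulatory receptor, was at 846 and 978 against 1740.2 and 1778 (log2 fold change -0.95 ± 0.13, adjusted p = 3.59e-11), Cd274, which encodes PD-L1, at 7117 and 6964 against 9523 and 9400.1 (log2 fold change -0.43 ± 0.066, adjusted p = 4.98e-09), the peptide transporter Tap1 at 3771 and 3975 against 5641 and 4989.5 (log2 fold change -0.46 ± 0.094, adjusted p = 2.92e-05) and the class II gene H2-Ab1 at 1348 and 1715 against 1970.4 and 2158 (log2 fold change -0.43 ± 0.14, adjusted p = 0.0193). The higher one was Icosl (892 and 979 against 663 and 768, log2 fold change 0.39 ± 0.14, adjusted p = 0.0482), the ligand of the T cell receptor ICOS. H2-Ab1 was not called without SJ3, SJ5 or SJ6 (adjusted p between 0.0646 and 0.404) or with edgeR (adjusted p = 0.0678) and Icosl was not called without SJ3, SJ4, SJ5 or SJ6 (adjusted p between 0.0699 and 0.444), with edgeR (adjusted p = 0.0871), with the 4 libraries fitted alone (adjusted p = 0.107) or with halved counts (adjusted p = 0.0734). For the antigen presentation list, leaving out SJ3, SJ4, SJ5 or SJ6 gave 0, 0, 0 and 0 members higher.

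Cell cycle and immediate early genes differed little. Of 41 replication and mitosis genes 0 were higher, 5 were lower and 36 were not called (median -0.077), against 1 lower by edgeR. The lower ones were Tyms (1735 and 1685 against 2142 and 2535, log2 fold change -0.45 ± 0.10, adjusted p = 1.25e-04), Gins2 (adjusted p = 0.0256), Cdk1 (adjusted p = 0.0277), Cdt1 (adjusted p = 0.0148) and Uhrf1 (adjusted p = 0.00962), with log2 fold changes of -0.35, -0.28, -0.22 and -0.20 for the last 4. The proliferation marker Mki67 was not called, at 6279 and 5925 against 6250.2 and 6526 with NS at 22477 and 21047. Of 20 immediate early and AP-1 genes 0 were higher, 2 were lower and 18 were not called (median -0.022), namely Ier3 (log2 fold change -0.45 ± 0.081, adjusted p = 1.55e-06) and Junb (log2 fold change -0.29 ± 0.070, adjusted p = 4.56e-04) as the lower ones. Tyms was not called without SJ6 (adjusted p = 0.0791), Gins2 was not called without SJ3, SJ4, SJ5 or SJ6 (adjusted p between 0.0653 and 0.311), with edgeR (adjusted p = 0.0760) or with the 4 libraries fitted alone (adjusted p = 0.0666) and Cdk1 was not called without SJ3, SJ4 or SJ6 (adjusted p between 0.142 and 0.580), with edgeR (adjusted p = 0.0942) or with the 4 libraries fitted alone (adjusted p = 0.0706). Cdt1 was not called without SJ3, SJ4, SJ5 or SJ6 (adjusted p between 0.0708 and 0.207) or with edgeR (adjusted p = 0.0870), Uhrf1 was not called without SJ3, SJ4, SJ5 or SJ6 (adjusted p between 0.0544 and 0.210) or with edgeR (adjusted p = 0.0793) and Junb was not called without SJ3 (adjusted p = 0.0576). The median of the immediate early list was 0.029, -0.11, -0.038 and 0.013 without SJ3, SJ4, SJ5 and SJ6. For the immediate early list, leaving out SJ3, SJ4, SJ5 or SJ6 gave 1, 2, 2 and 2 members lower. The median of the replication and mitosis list was -0.050 without SJ6. For the replication and mitosis list, leaving out SJ3, SJ4, SJ5 or SJ6 gave 1, 1, 2 and 0 members lower.

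The study displays 18 genes as immunosuppressive in macrophages. Of these 3 were higher, 9 were lower and 6 were not called in NB9464 TCM against NBT3L TCM, with a median of -0.19. The list was chosen by the study on these samples and is not independent evidence of a direction. Those called higher were Cd163, Il10 and Vegfa, and the largest differences among those called lower were of Il1b, Cxcl3, Arg1 and Mmp9, each given above. With edgeR, with halved counts, with the 4 libraries fitted alone and with the 8 TCM libraries fitted alone 4 members were called higher. Syk, the target of R788, was at 34238 and 33632 against 37102 and 37581 (log2 fold change -0.14 ± 0.051, adjusted p = 0.0502) and was not called, while it was called lower with the 4 libraries fitted alone (log2 fold change -0.12, adjusted p = 0.0408), with the 8 TCM libraries fitted alone (log2 fold change -0.13, adjusted p = 0.00566) and without SJ8 (log2 fold change -0.14, adjusted p = 0.0105), and edgeR did not (adjusted p = 0.167).

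Of the 15 largest rises among genes whose mean reached 100 normalized counts, 6 are members of the lists above. Of the others, Cox6a2, a muscle form of a cytochrome c oxidase subunit, was at 300.4 and 347 normalized counts in the NB9464 TCM libraries against 34.7 and 84.4 in the NBT3L TCM libraries (log2 fold change 2.43 ± 0.34, adjusted p = 9.91e-11), and its exons overlap Itgad on the other strand. Klhl6, an adaptor of a ubiquitin ligase, was at 741 and 818 against 236 and 163 (log2 fold change 1.97 ± 0.23, adjusted p = 5.50e-16) and Aqp9, a glycerol and water channel, at 358 and 539.7 against 97.8 and 143 (log2 fold change 1.90 ± 0.27, adjusted p = 2.07e-10). The NS libraries, at 772 and 837 and 668 and 472, lay above both NBT3L TCM libraries in each. Efnb2, an ephrin ligand, Soat2, a cholesterol acyltransferase, Serpini1, a serpin, and Cldn12, a claudin, had log2 fold changes of 1.84 ± 0.45, 1.74 ± 0.40, 1.70 ± 0.31 and 1.68 ± 0.35. Orm1, an acute phase protein, was at 242 and 203 against 68.1 and 68.2 (log2 fold change 1.71 ± 0.60, adjusted p = 0.0403). Tmem176a was at 1978 and 2102 against 621 and 655 (log2 fold change 1.68 ± 0.13, adjusted p = 2.73e-37), with exons that overlap its neighbor Tmem176b on the other strand. Efnb2 was not called without SJ3 or SJ6 (adjusted p between 0.0926 and 0.141), Soat2 was not called without SJ6 (adjusted p = 0.0608) and Orm1 was not called without SJ3, SJ4, SJ5 or SJ6 (adjusted p between 0.144 and 0.292) or with edgeR (adjusted p = 0.110).

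Of the 15 largest falls, 5 are list members. Selenow (ENSMUSG00000041571, chromosome 7, 15917208 to 15922402), which encodes a small selenoprotein, was the most abundant of the others, at 3666 and 3993 normalized counts in the NB9464 TCM libraries against 15334 and 14018 in the NBT3L TCM libraries (log2 fold change -1.94 ± 0.12, adjusted p = 9.87e-60, NS 2344 and 2524). The noncoding transcript U90926 was at 3031 and 2856 against 13753 and 13681 (log2 fold change -2.22 ± 0.073, adjusted p = 2.50e-198) with 0 and 5.69 in NS. Cav1, the caveolar coat protein, was at 416 and 372 against 2000.1 and 1932 (log2 fold change -2.32 ± 0.16, adjusted p = 1.23e-46) and Kdr, a receptor of VEGF, at 109 and 104 against 425 and 423 (log2 fold change -1.99 ± 0.29, adjusted p = 2.22e-10). NS lay between the media for Cav1 (1075 and 1000.4) and above both for Kdr (1348 and 1405). Ch25h, an interferon-induced enzyme that makes 25-hydroxycholesterol, was at 80.3 and 87.3 against 370.1 and 426 (log2 fold change -2.25 ± 0.45, adjusted p = 1.74e-05), and Pdpn, the membrane protein podoplanin, at 889.6 and 825 against 2972 and 3285 (log2 fold change -1.87 ± 0.18, adjusted p = 3.95e-22). Flrt3, Serpinb9b, Il23r and Adam19 had log2 fold changes of -2.44 ± 0.46, -1.89 ± 0.23, -1.84 ± 0.52 and -1.84 ± 0.67. Exons of Ch25h, Serpinb9b and Adam19 overlap other annotated genes on the opposite strand. The NBT3L TCM libraries were the high ones in all 10 genes. Il23r was not called without SJ4, SJ5 or SJ6 (adjusted p between 0.128 and 0.184) or with edgeR (adjusted p = 0.0852) and Adam19 was not called without SJ3, SJ5 or SJ6 (adjusted p between 0.145 and 0.411), with edgeR (adjusted p = 0.124) or with TMM scaling (adjusted p = 0.0519).

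The same 2 media were also given with R788, in 4 libraries that share none with the comparison above, and these show how the called genes stood there. Of the 600 higher genes, 281 were called higher, 3 lower and 316 were not called, and 531 (88.5%) had the same sign. Of the 931 lower genes, 528 were called lower, 1 higher and 402 were not called, and 888 (95.4%) had the same sign, beside 63.6% of all tested genes. In this comparison 9.62% of all genes were called, 3.53% higher and 6.09% lower. The amino acid list had 32 members higher and 3 lower there (median 0.58), the interferon list 0 and 20 (median -0.44), and the CXC chemokines 0 and 8 (median -0.98). The CC chemokines had 2 members higher and 3 lower there (median -0.24). Chac1 was at 521 and 484 against 33.9 and 54.3 normalized counts, Asns at 4294 and 4372 against 1263 and 1115, and Il1b at 569 and 579.8 against 4922 and 4614, so none of the 3 overlapped between media. Replication and mitosis genes were lower for 17 of 41 members with R788 beside 5 without, and the fatty acid genes higher for 3 beside 6. Single members of such lists were tested for a difference between the settings, and the lists were not.

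**Figure D4:**
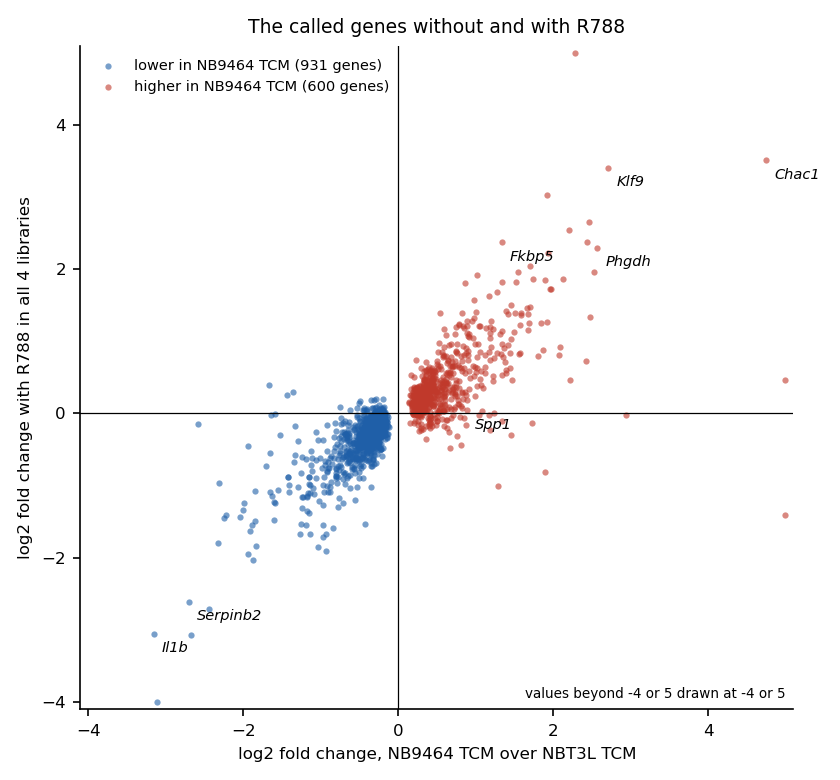
Log2 fold change between the media without R788 (horizontal) and with R788 (vertical) of the 1531 genes called without R788, red where higher and blue where lower in NB9464 TCM. The axes use separate libraries, and 88.5% of red and 95.4% of blue points have the same sign on both.

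Whether a difference between media itself changed with R788 was tested by interaction, which called 0.706% of all genes, 115 genes with DESeq2 and 21 with edgeR. Among the genes named here DESeq2 called it for 11, of which edgeR also called U90926, Fkbp5, Scd2 and Spp1. Many named genes were chosen for a large difference without R788, the same value that is subtracted in this test. That choice by itself favors smaller differences with R788. For Fkbp5 the difference was larger with R788 (log2 fold change 1.34 ± 0.095 without and 2.38 ± 0.096 with R788). For Scd2, Abcg1, Ccr2 and Spp1 it was smaller, and for Spp1 it was 0.044 ± 0.055 with R788. Il1a, Il1rn and U90926 kept lower values in NB9464 TCM, by less than without the drug, and Mrc1 and Uhrf1 by more. The amino acid genes named above other than Slc3a2 were not called in this test. Of the 11 CC chemokines 3 were called.

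**Figure D5:**
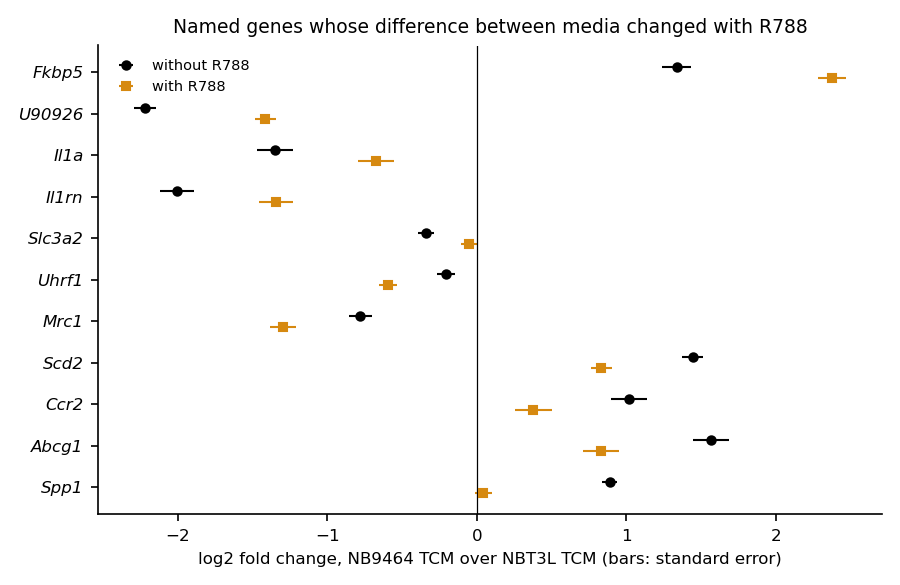
Log2 fold change of NB9464 TCM over NBT3L TCM without R788 (black circles) and with R788 (orange squares) for the 11 named genes with a called interaction, with bars of 1 standard error (2 libraries per medium in each setting). The gap between the symbols of a row is the interaction, widest for Fkbp5 and Spp1.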

How the data were processed

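Poly(A)-selected RNA of mouse BMDMs was sequenced in 12 libraries, 2 per group, and groups were taken from the labels. The deposited values were raw counts, whole numbers for each Ensembl gene, beside a gene length. By the methods of the study the authors ran STAR on mm10 and then Salmon, with versions 2.6.1d and 1.4.0 in the submitters' processing notes. Strand use and the handling of reads with several mapping places were not stated. The labels give paired-end reads on a NovaSeq, while the methods describe single reads in triplicate. Between 65.2% and 67.9% of low counts in a library were even, so halved counts were among the alternatives. Symbols and positions came from GENCODE M21 on GRCm38, which matched 54165 of 54232 IDs.

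Counts were fitted with DESeq2 1.42.0 in R 4.3.3, with median-of-ratios size factors, 1 mean per group over all 12 libraries and two-sided Wald tests. Benjamini-Hochberg adjustment was over the tested genes that passed the default filter of DESeq2 on mean counts. DESeq2 gave no adjusted p to 4419 genes, which could not be called but are part of the shares of all tested genes. Since each group had 2 libraries, p-values lean on the dispersion that the model shares among genes and groups. TPM for the summed markers was computed here from counts and lengths. The fits were tested on simulated data. Alternatives were edgeR 4.0.16, TMM scaling, other filters, a 2-fold minimum, fits of fewer libraries, and leaving out each library with TCM or SJ8. SJ1, SJ2 and SJ7 were not left out singly.

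Genes named were the 15 largest rises and 15 largest falls (called, with a symbol, groups not overlapping and at least 100 normalized counts on average in the 4 libraries), up to 4 called members per list with the largest change, the first gene of each subgroup of a list, Syk, and members of counts of 5 or fewer. Cxcl2, Nupr1, Pycr1, Gars, Iars and the selenoproteins other than Selenow and Txnrd1 were chosen after their values were seen. The comparison and the lists were chosen with earlier results of these data known. Promoter sequences are from RefSeq, GRCm38.p6, matched by symbol or synonym. Values of a few genes are not reported here.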

Additional observations from a re-analysis of the deposited data

Results flagged for a closer look

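Groups of 2 libraries were not tested for a library far from the others of its group. In the test of whether the difference between media changed with R788, 11 of the named genes were called, and each value below is the log2 fold change between media with R788 minus that without. The choice of named genes by their difference without R788 favors values of the opposite sign to that difference. Positive values were found for Fkbp5, at 1.04 ± 0.13 (adjusted p = 3.33e-11), and, for genes lower in NB9464 TCM, for U90926, at 0.81 ± 0.10 (adjusted p = 2.19e-11), Il1a, at 0.67 ± 0.17 (adjusted p = 0.0191), Il1rn, at 0.66 ± 0.16 (adjusted p = 0.00997), and Slc3a2, at 0.29 ± 0.075 (adjusted p = 0.0236). Negative values were found for Spp1, at -0.84 ± 0.074 (adjusted p = 3.39e-26), Abcg1, at -0.74 ± 0.17 (adjusted p = 0.00369), Ccr2, at -0.64 ± 0.18 (adjusted p = 0.0413), Scd2, at -0.61 ± 0.096 (adjusted p = 2.90e-07), Mrc1, at -0.52 ± 0.12 (adjusted p = 0.00314), and Uhrf1, at -0.39 ± 0.088 (adjusted p = 0.00314). Normalized counts of Spp1 with R788 were 3791 and 4019 in NB9464 TCM and 3719.9 and 3850.4 in NBT3L TCM, and those of Abcg1 were 1481 and 1412 against 873 and 755. With edgeR the interaction was called for Spp1, Fkbp5, Scd2 and U90926, and the adjusted p of the other 7 lay between 0.0726 and 0.307. Over all genes 46 interactions were positive and 69 negative.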

How the results depend on the processing

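No paired analysis was possible because the libraries are numbered from SJ1 to SJ12 in the labels and no number occurs in more than 1 group. The count of 1531 called genes fell to between 795 and 1056 when each library was left out, with 795 without SJ6, 875 without SJ5 and 944 without SJ3, where the lone library of a group is assumed to vary like the others, and to 181 with a 2-fold minimum. It rose to 2008 without SJ8 and to 1951 with the 8 TCM libraries fitted alone. TMM scaling gave 1466 genes, 639 higher and 827 lower. For the media with R788 the count of 1567 became 851 to 994 with 1 library left out and 294 with a 2-fold minimum. The 115 interactions became 21 with edgeR, 271 in a fit of the 8 libraries with TCM, 233 without the R788 library SJ8 (an alternative added after seeing the data, as SJ8 had the fewest genes detected), 22 with a 2-fold minimum and 46 to 75 with 1 library left out. With 1 library left out, the median log2 fold changes of the lists ranged over 0.63 to 0.71 for amino acid shortage and ATF4 response, 0.26 to 0.46 for glucocorticoid-responsive genes (7 members higher in place of 9 without SJ3), -0.17 to -0.15 for endoplasmic reticulum chaperones, -0.22 to -0.038 for interleukin 1 family and inflammasome, -0.20 to -0.18 for inflammatory cytokines and enzymes, -0.63 to -0.50 for chemokines and their receptors, -0.67 to -0.62 for interferon-stimulated genes, -0.10 to -0.050 for DNA replication and mitosis, 0.15 to 0.17 for sterol and fatty acid synthesis, -0.35 to -0.27 for glycolysis and HIF1A targets, -0.24 to -0.14 for NRF2 targets and iron handling, -0.37 to -0.22 for plasminogen activators, metalloproteinases and inhibitors, -0.19 to -0.048 for secreted growth factors and IGF axis, -0.25 to -0.16 for antigen presentation and co-stimulation, -0.34 to -0.28 for scavenger and lipid-associated macrophage genes, -0.11 to 0.029 for immediate early and AP-1 factors, -0.25 to -0.17 for macrophage immunosuppressive genes displayed by the study. With a mean of at least 50 counts, the median of the immunosuppressive list was -0.23. No called gene named here changed sign in an alternative, while Slc7a11, Nr3c1, Trem2 and Egr1, which were not called, did, as did the median of the immediate early list without SJ3 or SJ6 and that of the sterol pathway genes without SJ3, SJ4 or SJ5. Of 147 named genes, 16 lost the call with edgeR, 2 with TMM scaling, and 25, 21, 21 and 30 without SJ3, SJ4, SJ5 and SJ6. The cause of these changes was not tested. Depth limits the least abundant members, since genes with few counts had no adjusted p.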

Other observations

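Selenoprotein genes, a group chosen after the value of Selenow was seen and therefore given with no test of the group, were uneven between the media. Of 20 such genes tested, 6 were lower in NB9464 TCM, 1 was higher and 13 were not called, with a median log2 fold change of -0.10 (-0.00143 over all tested genes). Selenoh, a nuclear redox protein, was at 752 and 909 against 1871 and 1806 normalized counts in NB9464 TCM against NBT3L TCM libraries (log2 fold change -1.15 ± 0.13, adjusted p = 1.00e-16). Gpx1, the cytosolic glutathione peroxidase, was at 23390.4 and 24326 against 48009 and 51171 (log2 fold change -1.06 ± 0.082, adjusted p = 1.02e-35), with NS at 33757 and 35919. Selenom (-0.59 ± 0.14), the thioredoxin reductase gene Txnrd1 (-0.45 ± 0.043) and Selenof (-0.26 ± 0.049) were lower by less on the log2 scale. The 1 higher gene was Sephs2, which makes the selenium donor for selenoprotein synthesis and is itself a selenoprotein, at 5174 and 5567 against 3678 and 3837 (log2 fold change 0.52 ± 0.075, adjusted p = 3.11e-10). Groups of libraries did not overlap in any of these 6 genes. With R788 the log2 fold changes were -1.95 for Selenow, -0.98 for Selenoh, -0.90 for Gpx1 and 0.62 for Sephs2. Selenom was not called without SJ6 (adjusted p = 0.0523).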
